A study of Homo sapiens with 27 samples.

Results

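The dual-specificity MAP kinase phosphatases studied here are the products of 9 genes, DUSP1, DUSP2, DUSP4, DUSP5, DUSP6, DUSP7, DUSP10, DUSP14 and DUSP16. They were chosen by gene symbol from the 18132 genes that had at least 1 probe set annotated to a single symbol. Together they had 22 such probe sets: 4 each for DUSP1, DUSP6 and DUSP10, 3 each for DUSP14 and DUSP16, and 1 each for DUSP2, DUSP4, DUSP5 and DUSP7. For every gene the probe set with the highest mean over all arrays was used, and the others served as a check. Their expression was measured in 3 human cancer lines on 27 arrays, which make up 9 groups of 3. Per the labels, EBC-1 lung cancer cells and MKN-45 gastric cancer cells are addicted to MET, a receptor tyrosine kinase, while HCC827 lung cancer cells, the negative control, carry active MET but do not need it. Each line received 1 uM SGX-523, a small molecule that selectively blocks MET's kinase activity, for 24 h or for 48 h, or DMSO alone as the vehicle control. No cell type beside the line is named, and because the DMSO arrays carry no time, both SGX-523 times were set against the same 3 of them.

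These phosphatases remove phosphate from both the threonine and the tyrosine of the activation loop of MAP kinases and so switch the kinases off. The family is grouped by the kinases it prefers. DUSP6 and DUSP7 act on ERK in the cytoplasm and DUSP5 acts on ERK in the nucleus. DUSP1, DUSP2 and DUSP4 are nuclear enzymes with broader targets among ERK, JNK and p38. DUSP10 and DUSP16 prefer JNK and p38. DUSP14 is a small atypical phosphatase without the kinase-binding domain of the others. Several of these genes are themselves transcribed in response to ERK signalling, which makes them negative feedback regulators of the pathway that lies downstream of receptors such as MET.

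The values are deposited log2 signals with 1 value per probe set and array. Probe sets that lay below their array's median on more than 24 arrays were left out, and 12386 genes passed, among them 8 of the 9 phosphatases. DUSP7 did not pass. Unless stated otherwise, a change is the log2 signal with SGX-523 minus that with DMSO, ± SE, with 3 arrays per group, from 1 limma fit over all arrays. Genes were called at a limma p under 0.05 after Benjamini-Hochberg adjustment over all genes tested. By the sample titles the arrays of a group are biological replicates, whose spread sets the p-values. Bulk RNA cannot tell less RNA per cell from fewer cells that express a gene. Signals of different probe sets are not on 1 scale, so no gene's level was ranked against another gene's.

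Array medians were 5.02 to 5.14 in EBC-1 and MKN-45 and 5.71 to 5.73 in HCC827. Arrays of HCC827 shared a median of 163 distinct values with arrays of the other lines, against 1056 between arrays of EBC-1 and MKN-45 and 1027.5 between arrays of HCC827. Levels in HCC827 are therefore given beside those of the other lines without a test. Replicate 3 of HCC827 SGX-523 24 h stood apart. Its Pearson r with the other 2 arrays of its group was 0.966, while all other within-group values were at least 0.9958. The results that use it are given with and without it. The 18 probe sets of bacterial and phage hybridization controls, which are added at a fixed amount, were higher with SGX-523 by a median of 0.33 at 24 h and 0.38 at 48 h in EBC-1, by 0.33 and 0.32 in MKN-45, and by 0.12 and 0.02 in HCC827. The median of all genes lay at 0.04 to 0.07 in EBC-1 and MKN-45 on the deposited scale, and at -0.23 to -0.32 once arrays were scaled to these controls, a setting chosen after seeing the data. Calls against DMSO, between times and between lines that depend on this scaling are given beside the results. Epithelial markers were above the array median in every group of a line for 4 of 5 genes in EBC-1 and all 5 in MKN-45 and HCC827. The exception was CDH1 in EBC-1, at 3.20 ± 0.462 (SD, n = 3) with DMSO. Their summed linear signal was 22047 at 24 h and 20675 at 48 h in EBC-1, against 31317 with DMSO, and 20137 and 20410 in MKN-45, against 29492 with DMSO. Of 4 squamous markers measured, none was above the median in EBC-1, and SOX2 was above it in MKN-45, where the list's sum was 1836 and 2194, against 340 with DMSO. Of 6 gastric and intestinal markers, 4 were above it in EBC-1 and 6 in MKN-45, with sums of 5687 and 6544 in EBC-1, against 3144 with DMSO, and of 3960 and 3125 in MKN-45, against 5075 with DMSO. Of 6 fibroblast markers, LUM and PDGFRB were above it in EBC-1, where the sum was 3677 and 4365, against 1134 with DMSO, and none was in MKN-45. Of 4 leukocyte markers measured, CD68 was above it in EBC-1 and HCC827 and LYZ in MKN-45, with sums of 140 and 141 in EBC-1, against 76 with DMSO, and of 2991 and 3050 in MKN-45, against 2868 with DMSO. The leukocyte marker PTPRC and the fibroblast marker COL1A1 were below the array median in every group. Of 4 lung alveolar markers, NAPSA, NKX2-1 and SFTPC were above the array median in EBC-1 and MKN-45, and all 4 in HCC827. Their sum in HCC827 was 1051 at 24 h and 1164 at 48 h, against 929 with DMSO. In EBC-1 it was 191 and 202, against 182, and in MKN-45 220 and 209, against 192. In HCC827 the sums of the other lists with SGX-523 lay near those with DMSO. The part of these markers in the results was not tested. The log2 ratio of the 3′ to the 5′ ACTB probe set, a sign of RNA quality, was 3.76 ± 0.01 at 24 h and 3.89 ± 0.12 at 48 h in EBC-1, against 3.36 ± 0.14 with DMSO, and 3.68 ± 0.02 and 4.16 ± 0.12 in MKN-45, against 3.53 ± 0.08 with DMSO (SD, n = 3). In HCC827 it was 2.65 ± 0.66 at 24 h, in the group whose replicate 3 stood apart, and 2.33 ± 0.10 at 48 h, against 2.08 ± 0.07 with DMSO. Its part in the results was not tested either.

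DUSP6 and DUSP4 lost most of their signal in both MET-dependent lines within 24 h of SGX-523, and DUSP5 and DUSP2 fell too. DUSP1, DUSP10 and DUSP16 were higher in the same cells. With arrays scaled to the hybridization controls, the rises of DUSP16 in both lines, of DUSP10 in EBC-1 and of DUSP1 in EBC-1 at 48 h were not called. In EBC-1, 5 of the 8 phosphatases tested were called lower and 3 higher at 24 h, where 28.1% of all genes were called lower and 31.2% higher. At 48 h the counts were again 5 and 3, against 28.9% and 32.8% of all genes. In MKN-45, 5 were lower and 3 higher at 24 h, against 26.9% and 33.4% of all genes, and 4 were lower and 3 higher at 48 h, against 26.2% and 36.4%. With 26.2% to 36.4% of all genes called in a direction, a call alone says little, and the sizes below carry the description. In HCC827, none of the 8 was called at 24 h, where 0.0323% of all genes were, and 3 were called lower and 1 higher at 48 h, against 10.7% and 11.6% of all genes.

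**Figure D1:**
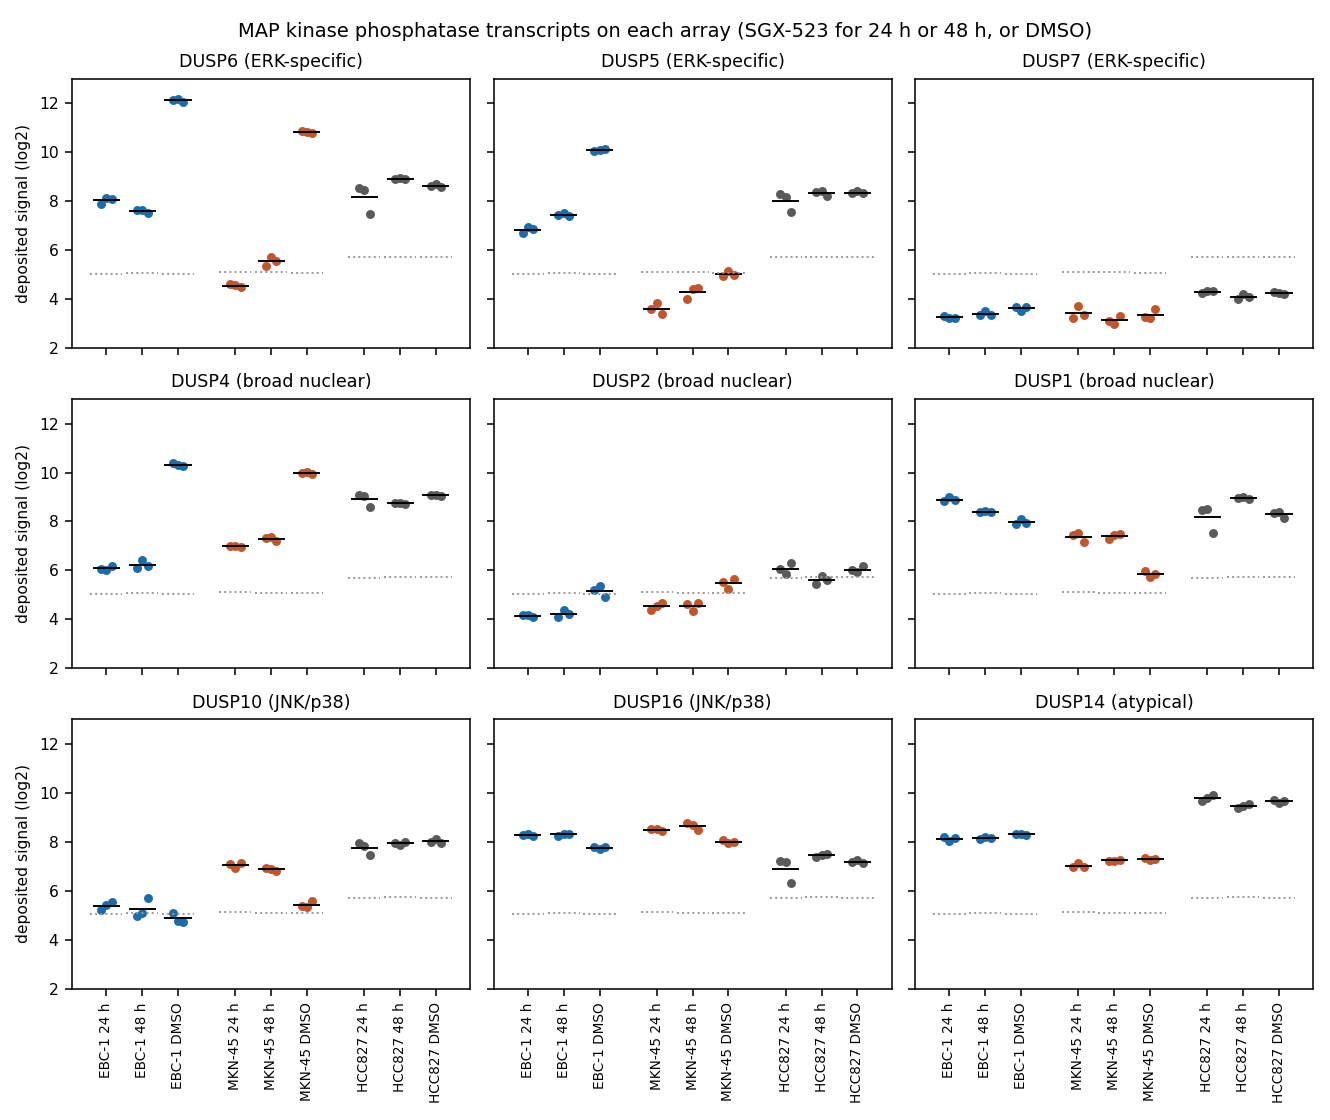
Deposited log2 signal of the brightest probe set of each phosphatase (vertical axis) on every array, by cell line and treatment (horizontal axis; 24 h and 48 h mean SGX-523). Points are arrays, black lines group means (n = 3), and dotted lines the array medians. DUSP6 and DUSP4 lie between 4.49 and 8.13 on all SGX-523 arrays of EBC-1 and MKN-45, and at or above 9.93 on their DMSO arrays. HCC827 levels may carry a difference in normalization.

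The promoter sequences of DUSP6 and DUSP2, which fell together, and of DUSP1 and DUSP16 are shown first. On the deposited scale the latter pair were higher in the same cells. The sequences come from RefSeq (GRCh38.p14), whose promoter table held 7 of the 9 genes. Each is the 250 bases before the transcription start, on the gene's own strand and from 5′ to 3′, and capitals mark a match to any of 3 motifs searched on both strands.
DUSP6 (minus strand, chr12:89352502-89352751): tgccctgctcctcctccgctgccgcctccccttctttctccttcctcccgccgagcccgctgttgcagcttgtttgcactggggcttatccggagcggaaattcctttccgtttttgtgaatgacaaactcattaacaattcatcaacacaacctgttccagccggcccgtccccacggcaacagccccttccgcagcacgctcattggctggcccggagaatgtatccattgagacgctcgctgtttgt
DUSP2 (minus strand, chr2:96145441-96145690): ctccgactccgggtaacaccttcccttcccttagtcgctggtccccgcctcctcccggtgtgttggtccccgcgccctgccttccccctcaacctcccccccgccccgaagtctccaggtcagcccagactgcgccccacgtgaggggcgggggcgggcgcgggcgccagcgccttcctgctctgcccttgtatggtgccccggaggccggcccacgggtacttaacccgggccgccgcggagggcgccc
DUSP1 (minus strand, chr5:172771196-172771445): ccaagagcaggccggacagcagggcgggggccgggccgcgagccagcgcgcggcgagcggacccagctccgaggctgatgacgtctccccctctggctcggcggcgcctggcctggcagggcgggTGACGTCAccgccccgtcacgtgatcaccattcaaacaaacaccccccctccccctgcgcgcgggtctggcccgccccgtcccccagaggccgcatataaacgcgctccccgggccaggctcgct
DUSP16 (minus strand, chr12:12562864-12563113): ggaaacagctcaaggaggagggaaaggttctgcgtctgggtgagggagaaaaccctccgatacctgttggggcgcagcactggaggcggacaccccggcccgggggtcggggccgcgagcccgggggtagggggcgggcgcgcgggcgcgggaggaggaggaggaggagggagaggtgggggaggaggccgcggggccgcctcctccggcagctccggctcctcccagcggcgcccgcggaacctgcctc
The motifs were the core of ETS factor sites (CCGGAA), the full cyclic AMP response element (TGACGTCA, the same on both strands) and the AP-1 site (TGANTCA). They were searched in windows from 250 bases before to 50 bases after the start. DUSP1 held 1 match, the cyclic AMP response element that begins 125 bases before its start. The windows of DUSP2, DUSP6, DUSP7, DUSP10 (with 2 starts), DUSP14 and DUSP16 held no match to any of the 3. Of 35116 RefSeq promoter windows, 17.2% held the ETS core, 1.85% the cyclic AMP response element and 7.71% the AP-1 site. An absent match says only that these letters are not in this window.

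DUSP6, the cytoplasmic ERK phosphatase (chr12:89347235-89352501), showed the largest fall of the group in MKN-45. Its signal was 7.89, 8.13 and 8.11 on the SGX-523 24 h arrays of EBC-1 and 7.63, 7.66 and 7.52 on the 48 h arrays, against 12.12, 12.17 and 12.06 with DMSO. No SGX-523 array came near a DMSO array. DUSP6 fell by 4.07 ± 0.162 at 24 h (limma adjusted p = 7.85e-17), a 16.8-fold lower signal, and by 4.51 ± 0.162 at 48 h (limma adjusted p = 7.83e-18). In MKN-45 the signal was 4.61, 4.59 and 4.49 at 24 h and 5.34, 5.74 and 5.57 at 48 h, against 10.87, 10.81 and 10.80 with DMSO. The 24 h arrays lay below the array median there, so the size of the fall is less certain than its direction. The change was -6.26 ± 0.162 at 24 h (limma adjusted p = 2.23e-20), the second lowest of the 12386 genes tested, and -5.27 ± 0.162 at 48 h (limma adjusted p = 4.4e-19). All 4 DUSP6 probe sets were called lower at both times in both lines, between -3.82 and -4.51 in EBC-1 and between -5.13 and -6.51 in MKN-45. In HCC827, DUSP6 gave 8.55, 8.47 and 7.48 at 24 h and 8.92, 8.95 and 8.93 at 48 h, against 8.63, 8.70 and 8.57 with DMSO. The low value at 24 h was that of replicate 3, and neither time was called.

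DUSP5, the nuclear ERK phosphatase (chr10:110497907-110511533), fell in both MET-dependent lines from very different levels. In EBC-1 its signal was 6.71, 6.93 and 6.87 at 24 h and 7.45, 7.53 and 7.40 at 48 h, against 10.07, 10.11 and 10.12 with DMSO. The groups did not overlap, and the changes were -3.26 ± 0.140 (limma adjusted p = 3.53e-16) and -2.64 ± 0.140 (limma adjusted p = 1.91e-14). In MKN-45 the SGX-523 arrays gave 3.59, 3.83 and 3.39 at 24 h and 4.02, 4.43 and 4.44 at 48 h, against 4.96, 5.15 and 5.00 with DMSO, which is near the array median. DUSP5 was thus 2.69-fold lower at 24 h. The changes were -1.43 ± 0.140 (limma adjusted p = 2.58e-09) and -0.74 ± 0.140 (limma adjusted p = 5.69e-05), at signals where an array resolves sizes poorly. DUSP7, the other cytoplasmic ERK phosphatase (chr3:52048919-52056571), was under the array median on all 27 arrays. Its group means ran between 3.14 and 4.31, and it was not tested.

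DUSP4, a nuclear phosphatase on chromosome 8, fell by over 4 log2 units in EBC-1. The SGX-523 arrays of EBC-1 gave 6.06, 6.03 and 6.18 at 24 h and 6.12, 6.42 and 6.19 at 48 h, against 10.38, 10.29 and 10.26 with DMSO. The change was -4.22 ± 0.093 at 24 h (limma adjusted p = 1.18e-21), the 16th lowest of all genes, and -4.07 ± 0.093 at 48 h (limma adjusted p = 1.18e-21). All 6 treated arrays lay more than 3 log2 units under the DMSO arrays. In MKN-45 the signal was 6.98, 7.0 and 6.97 at 24 h and 7.32, 7.36 and 7.22 at 48 h, against 9.93 to 10.03 with DMSO. DUSP4 fell there by 3.0 ± 0.093 (limma adjusted p = 7.65e-19), an 8.01-fold lower signal, and by 2.69 ± 0.093 (limma adjusted p = 4.66e-18). These signals were above the array median on all 27 arrays, so the size of this fall is better measured than that of DUSP6 in MKN-45.

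DUSP2, a nuclear phosphatase best known from immune cells (chr2:96143169-96145440), fell to a signal below the array median. In EBC-1 it gave 4.17, 4.19 and 4.12 at 24 h and 4.12, 4.37 and 4.21 at 48 h, against 5.22, 5.38 and 4.90 with DMSO. In MKN-45 it gave 4.39, 4.55 and 4.68 at 24 h and 4.65, 4.35 and 4.69 at 48 h, against 5.53, 5.25 and 5.66 with DMSO. The groups did not overlap in either line, and the 4 changes lay between -0.91 and -1.01, each ± 0.140, with limma adjusted p between 8.49e-07 and 3.44e-06. The DMSO level was close to the array median, so the size of this fall is uncertain.

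DUSP1, a nuclear phosphatase and immediate early gene (chr5:172768096-172771195), moved the other way from DUSP2 and DUSP4. MKN-45 arrays gave 7.45, 7.53 and 7.16 at 24 h and 7.28, 7.45 and 7.47 at 48 h, against 5.98, 5.74 and 5.84 with DMSO. DUSP1 rose there by 1.52 ± 0.156 (limma adjusted p = 5.93e-09) and 1.54 ± 0.156 (limma adjusted p = 4.36e-09), a 2.87-fold and a 2.91-fold higher signal. In EBC-1 it gave 8.82, 8.99 and 8.87 at 24 h and 8.38, 8.43 and 8.38 at 48 h, against 7.90, 8.10 and 7.94 with DMSO. The rise was 0.91 ± 0.156 at 24 h (limma adjusted p = 1.66e-05), with all treated arrays above all DMSO arrays. At 48 h it was 0.42 ± 0.156 (limma adjusted p = 0.0242). That smaller rise was 0.03 when arrays were scaled to the hybridization controls (limma adjusted p = 0.909), and it was not called without DMSO replicate 1 (0.38), DMSO replicate 3 (0.40) or SGX-523 48 h replicate 2 (0.40). The 24 h rise in EBC-1 and both rises in MKN-45 were called under either scaling. Both DUSP1 probe sets that passed the filter gave called rises in all 4 comparisons.

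DUSP10, a phosphatase of JNK and p38 (chr1:221701424-221742089), rose in MKN-45. Its signal there was 7.10, 6.94 and 7.11 at 24 h and 6.92, 6.87 and 6.80 at 48 h, against 5.37, 5.33 and 5.56 with DMSO. The rise was 1.63 ± 0.149 (limma adjusted p = 7.46e-10) and 1.45 ± 0.149 (limma adjusted p = 5.54e-09), and all 4 DUSP10 probe sets were called higher at both times, between 0.52 and 1.85. The ends of that range came from probe sets at 3.54 and 3.67 with DMSO in MKN-45. These lay under its array medians of 5.06 to 5.14, so the sizes they give are uncertain. In EBC-1 the signal stayed near the array median, with 5.20, 5.40 and 5.53 at 24 h and 4.98, 5.09 and 5.72 at 48 h, against 5.1, 4.78 and 4.74 with DMSO. The groups overlapped at 48 h. DUSP10 was called at 0.50 ± 0.149 at 24 h (limma adjusted p = 0.00509) and at 0.39 ± 0.149 at 48 h (limma adjusted p = 0.0247), but these calls did not hold under every setting. Scaled to the hybridization controls the values were 0.16 (limma adjusted p = 0.405) and 0.01 (limma adjusted p = 0.976). With the mean of all its probe sets they were 0.20 (limma adjusted p = 0.175) and 0.15 (limma adjusted p = 0.309), and without SGX-523 48 h replicate 3 the 48 h value was 0.17 (limma adjusted p = 0.295). The 4 probe sets ranged from -0.16 to 0.50 in EBC-1. The lowest value came from a probe set at 3.59 with DMSO, 3.57 at 24 h and 3.43 at 48 h. Another was at 2.95, 2.97 and 2.86 in the same order. Both lay far under the EBC-1 array medians of 5.02 to 5.1, where a change is resolved poorly. Both also enter the mean of all probe sets, which limits that check.

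DUSP16, the other phosphatase of JNK and p38 (chr12:12473282-12562863), had small differences that were very uniform in its brightest probe set. EBC-1 arrays gave 8.27, 8.33 and 8.25 at 24 h and 8.25, 8.32 and 8.33 at 48 h, against 7.77, 7.71 and 7.79 with DMSO. MKN-45 arrays gave 8.51, 8.50 and 8.43 at 24 h and 8.75, 8.67 and 8.48 at 48 h, against 8.06, 7.93 and 7.97 with DMSO. All SGX-523 arrays lay above all DMSO arrays of their line. The rises were 0.53 and 0.54 in EBC-1 (limma adjusted p = 0.00201 and 0.00153) and 0.49 and 0.65 in MKN-45 (limma adjusted p = 0.00354 and 0.000253), each ± 0.139. Scaled to the hybridization controls, all 4 were smaller and none was called, at 0.19 (limma adjusted p = 0.381), 0.15 (0.471), 0.21 (0.334) and 0.34 (0.107). Whether DUSP16 RNA rose relative to those controls was thus not shown, although all 4 values lay above the median of all genes under both scalings. Of the 2 DUSP16 probe sets that passed the filter, 1 was called in EBC-1 at 24 h, where they gave 0.29 and 0.53. Both were called higher in the other comparisons of EBC-1 and MKN-45 with DMSO, between 0.31 and 0.65.

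DUSP14, the small atypical phosphatase (chr17:37488566-37513498), had the smallest changes of the 8 on the deposited scale. It gave 8.19, 8.02 and 8.16 at 24 h and 8.11, 8.20 and 8.16 at 48 h in EBC-1, against 8.32, 8.32 and 8.29 with DMSO. Its changes were -0.19 ± 0.065 (limma adjusted p = 0.0148) and -0.15 ± 0.065 (limma adjusted p = 0.0469). In MKN-45 they were -0.27 ± 0.065 at 24 h (limma adjusted p = 0.00078) and -0.06 ± 0.065 at 48 h, which was not called (95% interval -0.19 to 0.08). With the mean of its 3 probe sets none of these 3 calls was made, at -0.09 (limma adjusted p = 0.322) and 0.03 (0.777) in EBC-1 and -0.12 (0.164) in MKN-45. Scaled to the hybridization controls all 4 were called lower, at -0.53, -0.54, -0.56 and -0.36.

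**Figure D2:**
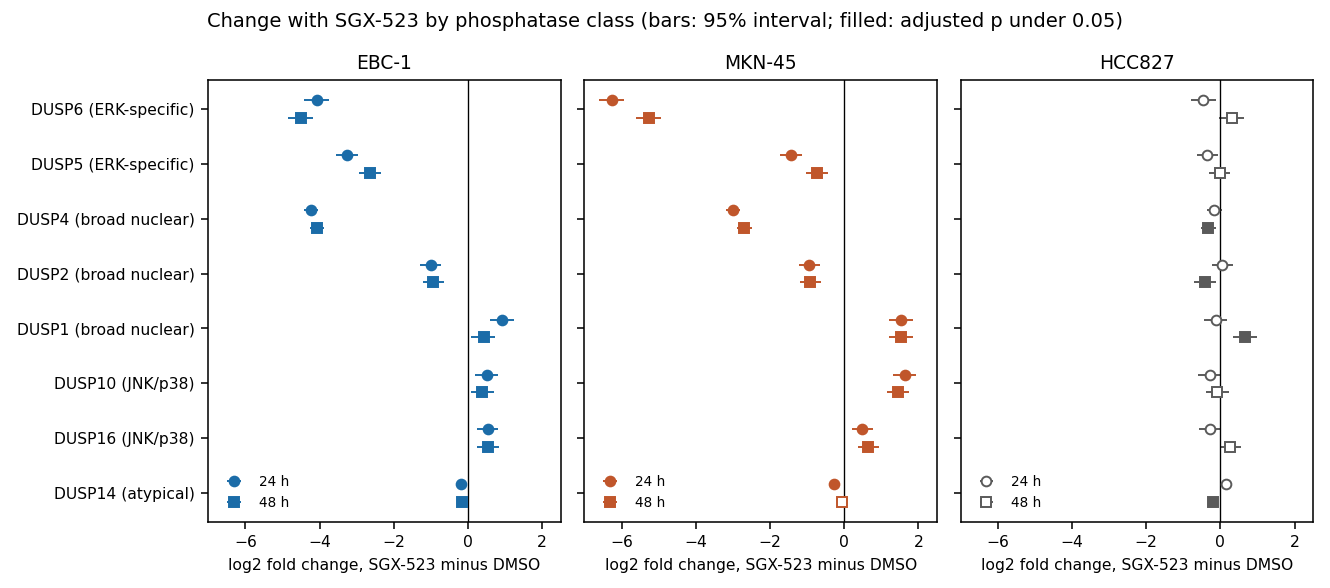
Log2 fold change of each tested phosphatase, SGX-523 minus DMSO (horizontal axis), by gene and class (vertical axis) in the 3 lines, with circles for 24 h, squares for 48 h and bars for 95% intervals (n = 3 arrays per group). Filled symbols passed an adjusted p of 0.05. DUSP6, DUSP5, DUSP4 and DUSP2 lie left of 0 in EBC-1 and MKN-45, where DUSP1, DUSP10 and DUSP16 lie right of it. All HCC827 values lie between -0.47 and 0.67.

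Set side by side by class, both tested ERK-specific genes among the 9, DUSP5 and DUSP6, were lower in all 4 comparisons of the MET-dependent lines, and both JNK/p38 genes, DUSP10 and DUSP16, were higher on the deposited scale. The median change of the ERK-specific pair was -3.67 at 24 h and -3.58 at 48 h in EBC-1, and -3.85 and -3.01 in MKN-45. That of the JNK/p38 pair was 0.51 and 0.47 in EBC-1, and 1.06 and 1.05 in MKN-45, while the median of all genes was 0.04 to 0.07. The classes differed in direction, while the sizes of single genes overlapped: in MKN-45 DUSP10 was at 1.63 and 1.45, and DUSP5 at -1.43 and -0.74. The 3 broad nuclear phosphatases did not share a direction, with DUSP4 and DUSP2 lower and DUSP1 higher in each of these comparisons. DUSP9, an ERK phosphatase that is not among the 9 genes, is not in these medians and rose in EBC-1, as given below with the other family members. With 2 or 3 genes a class, these are descriptions without a test. Under scaling to the hybridization controls the ERK-specific medians were -4.01 and -3.97 in EBC-1 and -4.13 and -3.31 in MKN-45, and the JNK/p38 medians were 0.17 and 0.08 in EBC-1 and 0.78 and 0.74 in MKN-45.

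**Figure D3:**
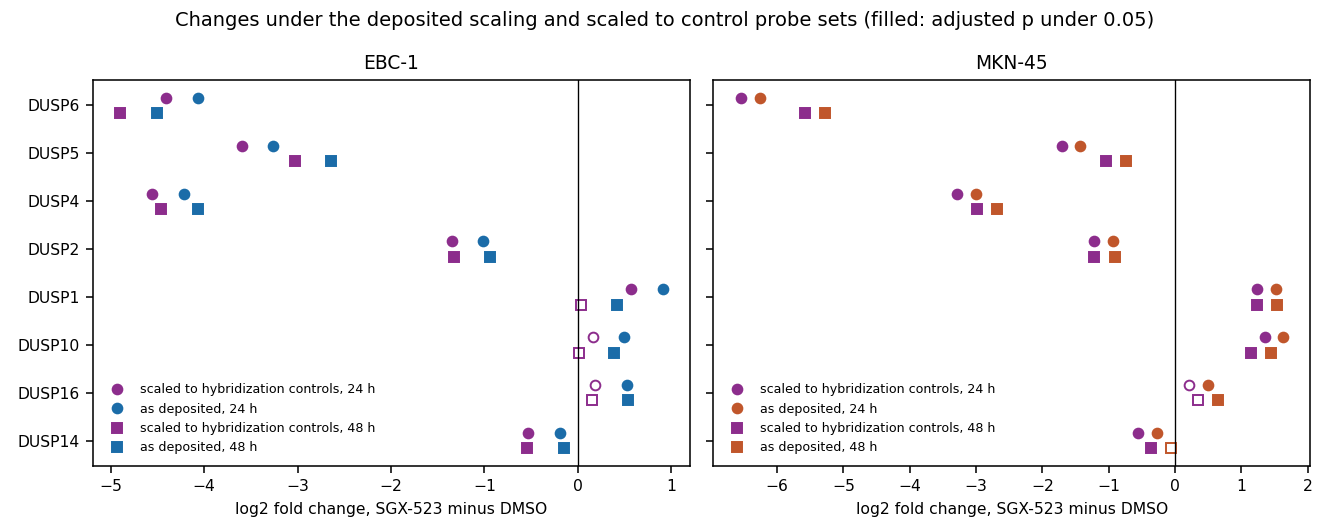
Log2 fold change, SGX-523 minus DMSO (horizontal axis), of each tested phosphatase (vertical axis) in EBC-1 and MKN-45 on the deposited scale (blue or orange) and with arrays scaled to 18 hybridization control probe sets (purple). Circles are 24 h and squares 48 h, and filled symbols passed an adjusted p of 0.05. The 4 DUSP16 values and the EBC-1 values of DUSP10 are open under the second scaling.

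**Figure D4:**
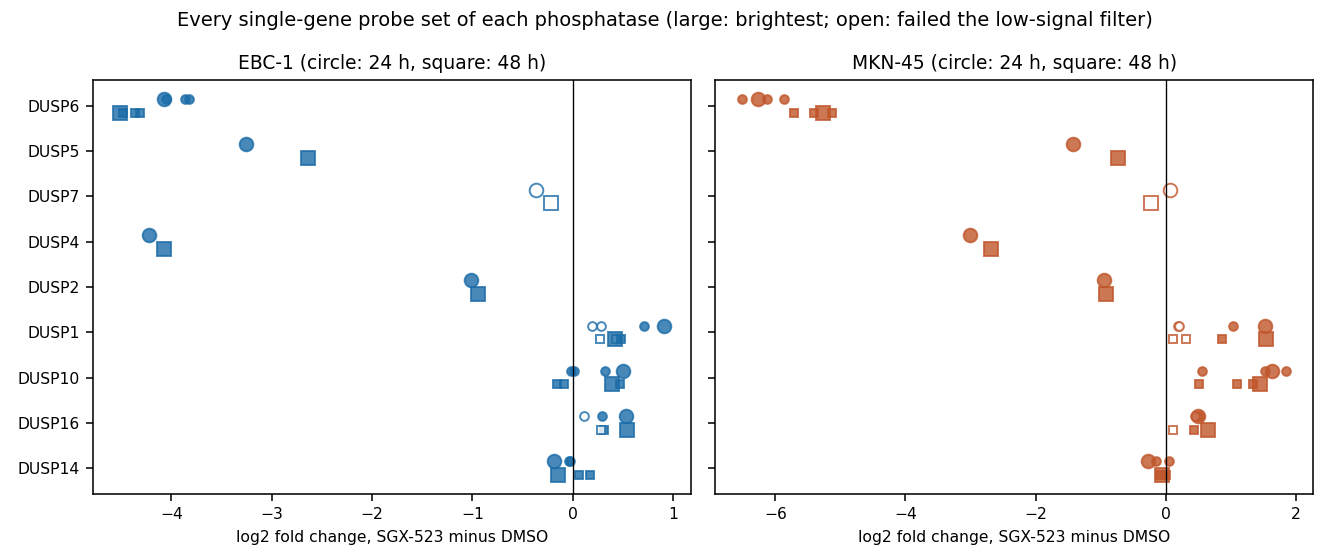
Log2 fold change, SGX-523 minus DMSO (horizontal axis), of each of the 22 probe sets of the 9 phosphatases (vertical axis) in EBC-1 and MKN-45, with circles for 24 h and squares for 48 h. Large symbols are the brightest probe set of a gene, and open symbols failed the filter on low signal. The 4 DUSP6 probe sets lie together, while those of DUSP10 straddle 0 in EBC-1, where some gave signals far under the array median.

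In HCC827, the line that does not depend on MET, no tested phosphatase changed by more than 0.67 log2 units from DMSO. At 24 h the 8 changes lay between -0.47 and 0.14 and none was called. An unadjusted limma p under 0.05 was found for 4 genes, DUSP5, DUSP6, DUSP14 and DUSP16. The share of all genes with such a p was not counted, so that number says little. Without replicate 3 of that group none was called either, and the same 4 genes were at -0.13, -0.12, 0.08 and 0.01. With replicate 1 or replicate 2 left out instead, so that replicate 3 weighed more, DUSP5, DUSP6 and DUSP16 were called lower, at -0.66 to -0.43. At 24 h all treated arrays of DUSP5, DUSP6 and DUSP10 lay below all DMSO arrays, although none of these genes was called. How many of all genes separate in this way was not counted, so this says little. DUSP5 was at 8.28, 8.16 and 7.56, against 8.32, 8.41 and 8.32 with DMSO. DUSP10 gave 7.93, 7.84 and 7.44 at 24 h and 7.95, 7.85 and 8.0 at 48 h, against 8.0, 8.13 and 7.95 with DMSO. The lowest treated value of each of these genes was that of replicate 3. At 48 h DUSP1 gave 8.98, 9.01 and 8.92, against 8.35, 8.40 and 8.16 with DMSO, a rise of 0.67 ± 0.156 (limma adjusted p = 0.00278). DUSP4 gave 8.76, 8.76 and 8.70, against 9.08, 9.09 and 9.03 with DMSO, a fall of 0.33 ± 0.093 (limma adjusted p = 0.0128). The treated and DMSO arrays of both genes did not overlap, nor did those of DUSP2, DUSP6, DUSP14 and DUSP16. The share of all genes that separate in this way at 48 h was not counted either. The fall of DUSP4 was small beside those at 48 h in EBC-1 (-4.07) and MKN-45 (-2.69). The rise of DUSP1 was below that in MKN-45 (1.54) but above that in EBC-1 (0.42), and its difference from EBC-1 was not called. DUSP2 was called at -0.42 ± 0.140 (limma adjusted p = 0.0309) and DUSP14 at -0.19 ± 0.065 (limma adjusted p = 0.0371). A separate fit of the 9 HCC827 arrays called none of these 4, with limma adjusted p = 0.0978 for DUSP1, 0.14 for DUSP4, 0.0952 for DUSP2 and 0.189 for DUSP14. That fit includes replicate 3 of the 24 h group. With this array left out of the main fit, all 4 stayed called, with limma adjusted p = 9.88e-08 for DUSP1, 9.81e-05 for DUSP4, 0.0107 for DUSP2 and 0.00789 for DUSP14. DUSP6 was at 0.30 at 48 h (limma adjusted p = 0.203, 95% interval -0.03 to 0.64) and DUSP16 at 0.26 (limma adjusted p = 0.196, 95% interval -0.02 to 0.55). Leaving out replicate 3 of the 24 h group, which these differences do not use but which adds to the shared spread, both were called, with limma adjusted p = 0.00113 and 0.000911.

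DUSP5 was higher at 48 h of SGX-523 than at 24 h in both MET-dependent lines, and DUSP6 was higher in MKN-45. In MKN-45, 4 of the 8 phosphatases were called between the times, against 24.3% of all genes. DUSP6 was higher at 48 h than at 24 h by 0.99 ± 0.162 (limma adjusted p = 5.98e-05), DUSP5 by 0.69 ± 0.140 (limma adjusted p = 0.000665), DUSP4 by 0.31 ± 0.093 (limma adjusted p = 0.0144) and DUSP14 by 0.22 ± 0.065 (limma adjusted p = 0.0159). All 3 later arrays lay above all 3 earlier arrays for each of these genes, and DUSP6, DUSP5 and DUSP4 stayed below every DMSO array. The share of all genes that separate between the times in this way was not counted. In EBC-1, 2 were called, against 11.1% of all genes. DUSP5 was higher at 48 h by 0.62 ± 0.140 (limma adjusted p = 0.00353) and DUSP1 was lower at 48 h (-0.50 ± 0.156, limma adjusted p = 0.0394). DUSP6 was at -0.44 ± 0.162 in EBC-1 and was not called (limma adjusted p = 0.0845). A fit without the HCC827 arrays, chosen after seeing the data, called it (limma adjusted p = 0.000179). With 64 added to each linear signal, DUSP5 in MKN-45 was at 0.14 between the times and was not called (limma adjusted p = 0.303). With arrays scaled to the hybridization controls, DUSP4 and DUSP14 in MKN-45 and DUSP1 in EBC-1 were no longer called, and with the mean of all probe sets DUSP14 (0.08, limma adjusted p = 0.535) and DUSP1 (-0.36, 0.0992) were not. In HCC827, 5 were called, against 26.5% of all genes, and the values were smaller without replicate 3 of the 24 h group. DUSP1 was higher at 48 h by 0.80 (0.49 without replicate 3), DUSP6 by 0.77 (0.43) and DUSP16 by 0.55 (0.26). DUSP14 was at -0.33 (-0.27) and DUSP2 at -0.47 (-0.36, limma adjusted p = 0.0649, no longer called). DUSP4 was at -0.17 and not called, and at -0.32 without replicate 3, where it was (limma adjusted p = 0.000603).

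The response was then compared between lines, as the difference of the log2 fold changes. Against HCC827 at 24 h, the responses of all 8 tested phosphatases differed in both MET-dependent lines, where 51.6% (EBC-1) and 52.7% (MKN-45) of all genes did. DUSP6 differed by -3.61 ± 0.229 in EBC-1 (limma adjusted p = 1.9e-12) and by -5.80 ± 0.229 in MKN-45 (limma adjusted p = 3.16e-16). Without replicate 3 of HCC827 SGX-523 24 h these differences were -3.95 and -6.14, and all 8 genes were still called in both lines. In that setting 7088 (EBC-1) and 7201 (MKN-45) of the 12386 genes were called. Scaled to the hybridization controls, DUSP10 (0.56, limma adjusted p = 0.0569) and DUSP16 (0.59, 0.0673) in EBC-1 and DUSP16 in MKN-45 (0.61, 0.0595) were not called. With 64 added to each linear signal, DUSP5 in MKN-45 was at -0.06 (limma adjusted p = 0.697), and with the mean of all probe sets DUSP14 was at -0.20 in EBC-1 (limma adjusted p = 0.11) and -0.24 in MKN-45 (0.0608). At 48 h, 4 differed between EBC-1 and HCC827, against 48.7% of all genes, and 6 between MKN-45 and HCC827, against 51.1%. Without that replicate, whose spread the fit shares, the counts were 6 and 7. Calls over all 12386 genes rose as well, from 6030 to 7350 for EBC-1 and from 6328 to 7689 for MKN-45. In MKN-45 the 48 h difference of DUSP1 was 0.87, and 0.59 scaled to the hybridization controls (limma adjusted p = 0.0893) or 0.36 with 64 added (0.0908). With 64 added, DUSP5 in MKN-45 (-0.19, limma adjusted p = 0.201) and DUSP2 in EBC-1 (-0.08, 0.461) and MKN-45 (-0.11, 0.246) were not called either. DUSP4 was at -3.74 ± 0.132 (limma adjusted p = 1.92e-17) in EBC-1 and -2.36 ± 0.132 (limma adjusted p = 1.64e-13) in MKN-45. For DUSP1 the difference between EBC-1 and HCC827 at 48 h was not called (-0.25, 95% interval -0.71 to 0.20, limma adjusted p = 0.375), where both lines had called rises.

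The MET-dependent lines also differed from each other in 5 of the 8 genes at each time, against 42.1% of all genes at 24 h and 49.0% at 48 h. DUSP5 fell further in EBC-1, by a difference of -1.83 ± 0.198 at 24 h (limma adjusted p = 4.65e-08), and so did DUSP4, at -1.22 ± 0.132 (limma adjusted p = 4.64e-08). DUSP6 fell further in MKN-45 at 24 h, at 2.19 ± 0.229 (limma adjusted p = 2.67e-08). At 48 h its difference was 0.76 ± 0.229 (limma adjusted p = 0.00786), with 64 added to each linear signal it was -0.04 (limma adjusted p = 0.86), and scaled to the hybridization controls it was 0.67 (limma adjusted p = 0.0636). The responses of DUSP10 and DUSP1 were smaller in EBC-1 than in MKN-45, at -1.13 ± 0.210 (limma adjusted p = 0.000104) and -0.61 ± 0.221 (limma adjusted p = 0.0287) at 24 h, and at -1.05 and -1.13 at 48 h. The 24 h difference of DUSP1 was not called with 64 added to each linear signal (-0.15, limma adjusted p = 0.542), with the mean of all probe sets (-0.47, 0.0558) or scaled to the hybridization controls (-0.67, 0.0721). It was not called either without any 1 of 6 arrays: EBC-1 DMSO replicate 2 (-0.55), EBC-1 SGX-523 24 h replicate 1 (-0.57) or 3 (-0.60), MKN-45 DMSO replicate 2 (-0.55), and MKN-45 SGX-523 24 h replicate 1 (-0.58) or 2 (-0.53). DUSP2, DUSP16 and DUSP14 were not called, with 95% intervals at 24 h of -0.48 to 0.34, -0.37 to 0.44 and -0.11 to 0.27. The DMSO level of DUSP5 in MKN-45 was near the array median, and the part of that in its difference was not tested.

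Under DMSO, 6 of the 8 phosphatases differed between EBC-1 and MKN-45, against 67.6% of all genes. DUSP5 was the most unequal, with a mean of 10.10 ± 0.028 in EBC-1 and 5.04 ± 0.098 in MKN-45 (SD, n = 3 each), a 33.4-fold higher signal (5.06 ± 0.140, limma adjusted p = 2.16e-20). DUSP1 was higher in EBC-1 by 2.12 ± 0.156 (limma adjusted p = 7.57e-12), DUSP6 by 1.29 ± 0.162 (limma adjusted p = 1.17e-07), DUSP14 by 1.02 ± 0.065 (limma adjusted p = 4.89e-13) and DUSP4 by 0.32 ± 0.093 (limma adjusted p = 0.00345). DUSP10 was lower in EBC-1, at -0.54 ± 0.149 (limma adjusted p = 0.00226). Of the 6 genes called, 5 were thus higher in EBC-1, but the shares of all genes called in each direction were not counted, so this split says little. DUSP2 (-0.31, limma adjusted p = 0.0544) and DUSP16 (-0.23, limma adjusted p = 0.148) were not called. For HCC827 the DMSO means were 8.63 for DUSP6, 8.35 for DUSP5, 9.07 for DUSP4, 6.03 for DUSP2, 8.30 for DUSP1, 8.03 for DUSP10, 7.18 for DUSP16 and 9.65 for DUSP14. Over the 9 groups, DUSP6 ran in the order EBC-1 DMSO (12.12), MKN-45 DMSO (10.82), HCC827 48 h (8.93), HCC827 DMSO (8.63), HCC827 24 h (8.17), EBC-1 24 h (8.04), EBC-1 48 h (7.60), MKN-45 48 h (5.55) and MKN-45 24 h (4.56). Neither SGX-523 group of HCC827 was called against its DMSO group, nor were the SGX-523 groups of EBC-1 against each other. The place of HCC827 in this order was not tested, since its arrays appear to be normalized apart. Within EBC-1 and MKN-45, DUSP10 was highest in MKN-45 at 24 h (7.05) and lowest in EBC-1 with DMSO (4.87).

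Most ERK feedback and target genes were lower in both MET-dependent lines. Of 17 ERK feedback and target genes outside the phosphatases, 14 were called lower and 0 higher in EBC-1 at 24 h (28.1% and 31.2% of all genes), with a median of -2.65, and 15 and 0 at 48 h, with a median of -2.67. In MKN-45, 16 were lower and 1 higher at both times (26.9% and 33.4% of all genes at 24 h), with medians of -2.55 and -2.38. Among them were the ephrin receptor EPHA2 (-3.56 ± 0.074 in EBC-1 and -3.35 ± 0.074 in MKN-45 at 24 h), the transcription factor MYC (-3.31 ± 0.078 and -4.92 ± 0.078) and SPRED2, an inhibitor of RAF activation (-3.24 ± 0.086 and -2.71 ± 0.086), with limma adjusted p of at most 1.06e-18. The gene higher in MKN-45 was EPHA4, another ephrin receptor, at 0.62 at 24 h and 1.31 at 48 h; it is named here after its values were seen. Scaled to the hybridization controls, no gene of the list was higher in MKN-45 at 24 h, and the counts of lower genes were 15 and 16 in EBC-1 and 16 and 16 in MKN-45. More of all genes were called lower under that scaling too.

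**Figure D5:**
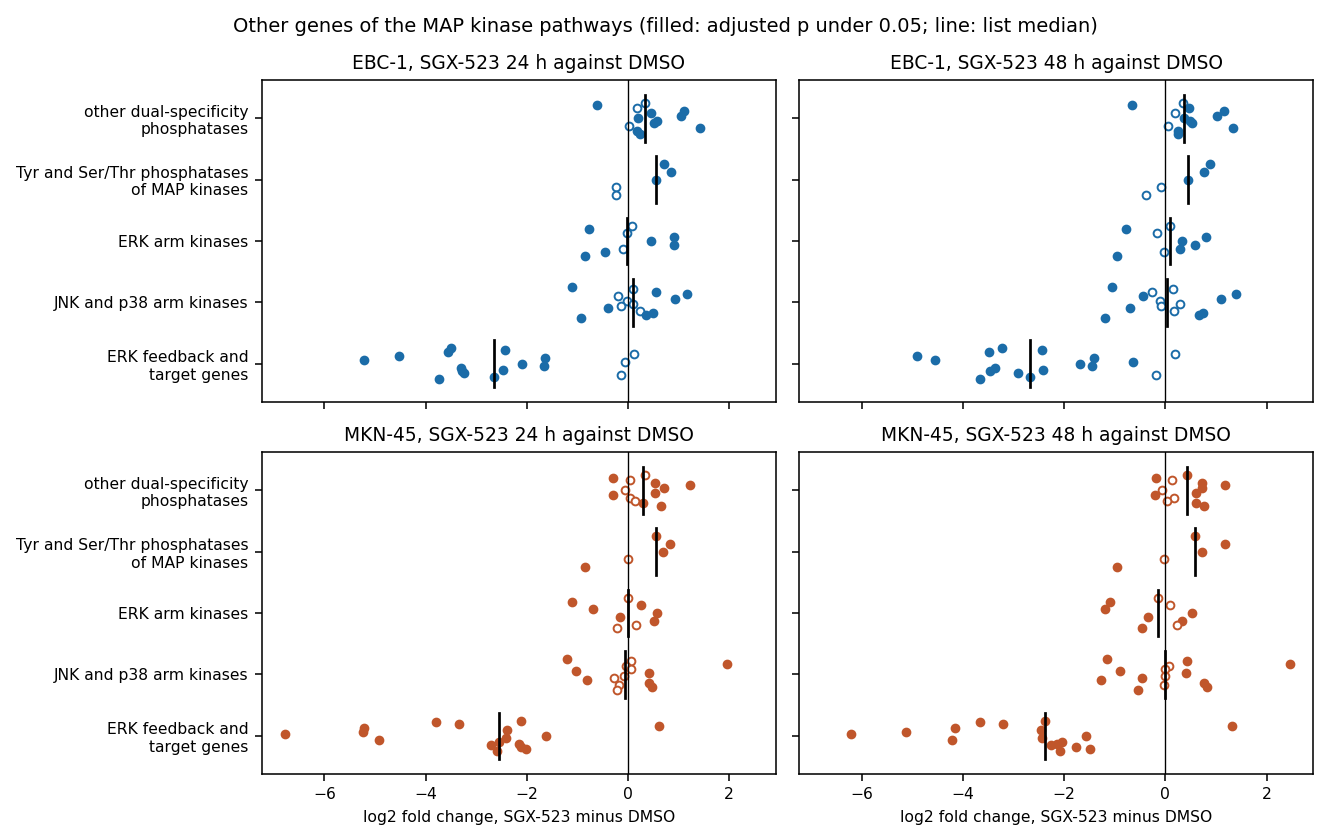
Log2 fold change, SGX-523 minus DMSO (horizontal axis), of the tested genes of 5 lists of MAP kinase pathway genes (vertical axis) in EBC-1 and MKN-45 at 24 h and 48 h. Each point is a gene, filled where adjusted p was under 0.05, and the black line is the list's median. The ERK feedback and target genes have medians of -2.38 to -2.67, the other dual-specificity phosphatases of 0.30 to 0.42, the other phosphatases of MAP kinases of 0.44 to 0.58, and the 2 kinase lists of -0.15 to 0.10.

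Of 13 other dual-specificity phosphatases tested, 9 were called higher and 1 lower at both times in EBC-1, against 31.2% and 28.1% of all genes at 24 h. In MKN-45, 6 were higher and 2 lower at 24 h, against 33.4% and 26.9% of all genes, and 7 higher and 2 lower at 48 h. DUSP9, an ERK phosphatase of the same subfamily as DUSP6, rose in EBC-1 by 1.42 ± 0.112 at 24 h (limma adjusted p = 4.91e-11), in the opposite direction to DUSP6 and DUSP5. DUSP22, a small atypical phosphatase, rose by 1.04 ± 0.075 in EBC-1 (limma adjusted p = 9.77e-12) and by 0.72 ± 0.075 in MKN-45 (limma adjusted p = 8.24e-09) at 24 h, and DUSP12 fell by 0.61 ± 0.067 in EBC-1 (limma adjusted p = 1.7e-08). Scaled to the hybridization controls, 4 were higher and 2 lower in EBC-1 at 24 h, and 4 and 3 in MKN-45. Under that scaling fewer of all genes were called higher and more lower. Of 5 tyrosine or serine/threonine phosphatases of MAP kinases, 3 were higher in each of the 4 comparisons, against 31.2% to 36.4% of all genes: PPM1A, PPM1B and PPM1D. At 24 h PPM1B was at 0.84 ± 0.122 in EBC-1 and 0.83 ± 0.122 in MKN-45 (limma adjusted p = 1.73e-06 and 2.01e-06). PTPRR, a tyrosine phosphatase of ERK, fell in MKN-45 at 24 h (-0.86 ± 0.221, limma adjusted p = 0.00161) and was at -0.24 ± 0.221 in EBC-1 (limma adjusted p = 0.382), and the difference between the lines was not called (0.62, limma adjusted p = 0.12). Of the 5, 2 were higher under scaling to the hybridization controls in each line at 24 h.

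Among the kinases that these phosphatases act on, and the kinases above and below them, the shares called were near those of all genes at 24 h. Of 9 ERK arm kinases, 3 were higher and 3 lower in each MET-dependent line at 24 h, against 31.2% and 28.1% of all genes in EBC-1 and 33.4% and 26.9% in MKN-45, and 2 higher with 6 lower in EBC-1 and 4 lower in MKN-45 when arrays were scaled to the hybridization controls. MAP2K1, the kinase MEK1 that activates ERK, fell by 0.77 ± 0.060 in EBC-1 (limma adjusted p = 3.53e-11) and by 1.11 ± 0.060 in MKN-45 (limma adjusted p = 3.4e-14). MAPK3, the kinase ERK1, was at 0.90 ± 0.091 in EBC-1 (limma adjusted p = 4.35e-09) and at -0.70 ± 0.091 in MKN-45 (limma adjusted p = 3.15e-07). Of 14 JNK and p38 arm kinases, 5 were higher and 3 lower in EBC-1 and 4 and 3 in MKN-45 at 24 h, which is again close to the same shares of all genes. These counts were 2 and 5 in EBC-1 and 2 and 7 in MKN-45 under that scaling. It also called more of all genes lower and fewer higher, as given in the closing section. The scaled counts of both kinase lists are therefore not comparable with the shares above. MAP2K3, an activator of p38, fell by 1.10 ± 0.088 in EBC-1 (limma adjusted p = 6.58e-11) and by 1.21 ± 0.088 in MKN-45 (limma adjusted p = 1.17e-11). MAP2K6, another activator of p38, was at 1.96 ± 0.131 in MKN-45 (limma adjusted p = 2.27e-12). In HCC827 at 48 h the immediate early genes EGR1 (1.75 ± 0.145, limma adjusted p = 5.43e-09) and FOS (1.52 ± 0.233, limma adjusted p = 3.48e-05) rose, as DUSP1 did there. CCND1 fell by 0.55 ± 0.076 (limma adjusted p = 1.1e-05). In that comparison 4 of the 17 ERK feedback and target genes were higher and 4 lower, against 11.6% and 10.7% of all genes.

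Over both MET-dependent lines (18 arrays), with each line's mean removed, DUSP6 varied with DUSP2, DUSP4 and DUSP5 and against DUSP1, DUSP10 and DUSP16. These points share the treatment, and the values only describe it. DUSP6 had Pearson r of 0.94 with DUSP4, 0.93 with DUSP2 and 0.81 with DUSP5, and of -0.90 with DUSP1, -0.89 with DUSP10 and -0.93 with DUSP16. DUSP4 and DUSP5 were at 0.95. Among genes outside the family, MYC was most like DUSP6 (r = 0.998), LYAR and MCM7 most like DUSP4 (both 0.998), and TIMM10 and CTPS1 most like DUSP5 (both 0.989). NAT10 was most like DUSP2 (0.962), SH3YL1 most like DUSP1 (0.984), CUL3 most like DUSP10 (0.966), PTPRE most like DUSP16 (0.981) and JTB most like DUSP14 (0.913). The closest match of DUSP14, the gene with the smallest changes on the deposited scale, was the weakest of the 8.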

How the data were processed

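RNA of 27 samples was hybridised to 1-colour expression arrays, 3 biological replicates per group by the labels' titles. The authors deposited log2 signals, 1 per probe set and array, for 49395 probe sets. The software MAS5 is named in the submitters' processing notes, which do not give its role here, and the sources used here do not give background correction or normalization. The array number limits precision: the median SE of a difference from DMSO was 0.11.

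Gene names came from the platform annotation: 44988 probe sets had 1 symbol, 1832 several, 102 were controls and 2473 had no symbol, and 44961 matched a RefSeq gene by Entrez ID. Probe sets at or above the array median on at least 3 of 27 arrays were kept (27359), and the brightest represented its gene. limma 3.58.1 in R 4.3.3 fitted 9 group means to the 27 arrays (18 residual degrees of freedom, lmFit, eBayes with trend) over 12386 genes, with Benjamini-Hochberg adjustment within each comparison. Tested on simulated data drawn for EBC-1 at 24 h over 12386 genes, the fit recovered 50%, 94%, 100% and 100% of 50 genes each changed 1.25-, 1.5-, 2- and 4-fold, and 3.91% of 179 calls were false. The simulated spread came from EBC-1 and MKN-45 alone, without the HCC827 replicate that stood apart. Far fewer genes were changed than were called on the arrays, so these rates need not hold there. The alternatives changed normalization, filter, probe set rule, pseudocount, weights, scaling and samples. Members, gene lists and rules were chosen with earlier results of these data known. All 9 members are named, with up to 4 genes of a pathway list by smallest adjusted p and the genes of highest r for each member.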

Additional observations from a re-analysis of the deposited data

Results flagged for a closer look

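The response to SGX-523 differed between lines by a test of the difference itself (limma, adjusted p under 0.05) in 36 cases. All values are differences of log2 fold changes.

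In EBC-1 minus MKN-45 at 24 h, DUSP5 was at -1.83, DUSP4 at -1.22, DUSP10 at -1.13, DUSP1 at -0.61 and DUSP6 at 2.19. At 48 h DUSP5 was at -1.90, DUSP4 at -1.38, DUSP1 at -1.13, DUSP10 at -1.05 and DUSP6 at 0.76. At 24 h DUSP6 thus had the deeper fall in MKN-45, and DUSP5 and DUSP4 had it in EBC-1.

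In EBC-1 minus HCC827 at 24 h, DUSP4 was at -4.06, DUSP6 at -3.61, DUSP5 at -2.91, DUSP2 at -1.05 and DUSP14 at -0.32, with DUSP10 at 0.79, DUSP16 at 0.82 and DUSP1 at 1.04. Without replicate 3 of HCC827 SGX-523 24 h these were -4.22, -3.95, -3.13, -0.94, -0.27, 0.64, 0.52 and 0.73. At 48 h DUSP6 was at -4.82, DUSP4 at -3.74, DUSP5 at -2.62 and DUSP2 at -0.51.

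In MKN-45 minus HCC827 at 24 h, DUSP6 was at -5.80, DUSP4 at -2.84, DUSP5 at -1.08, DUSP2 at -0.98 and DUSP14 at -0.41, with DUSP16 at 0.78, DUSP1 at 1.65 and DUSP10 at 1.92. Without the same replicate they were -6.14, -3.0, -1.30, -0.87, -0.36, 0.49, 1.34 and 1.77. At 48 h DUSP6 was at -5.58, DUSP4 at -2.36, DUSP5 at -0.72 and DUSP2 at -0.49, with DUSP1 at 0.87 and DUSP10 at 1.54.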

How the results depend on the processing

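Of 4864 values of 128 phosphatase results under the alternatives, 4688 kept direction and call, 121 lost the call, 52 gained one and 3 reversed. The reversals were DUSP14 in EBC-1 at 48 h (0.03 with the mean of all probe sets), DUSP6 in EBC-1 minus MKN-45 at 48 h (-0.04 with 64 added to each linear signal) and DUSP14 in EBC-1 minus HCC827 at 48 h (-0.33 scaled to the hybridization controls). That scaling, chosen after seeing the data, left 1 phosphatase called higher in EBC-1 at 24 h and 0 at 48 h, 1 lower in HCC827 at 48 h, and 1 and 2 called between times in EBC-1 and MKN-45. It moved the split of all genes called lower and higher in EBC-1 to 6325 and 1956 at 24 h (3475 and 3861 as deposited) and 6478 and 1902 at 48 h (3575 and 4057), and in MKN-45 to 5539 and 2266 (3330 and 4139) and 5837 and 2527 (3242 and 4513). A separate fit of HCC827 gave 0 lower and 0 higher at 48 h and 1 between times. Array weights, chosen after seeing the data, gave 3 higher in HCC827 at 48 h and 7 in EBC-1 minus HCC827 at 48 h. With no filter, or with the mean of all probe sets, 1 was called between times in EBC-1. The causes were not tested.

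Leaving out each array in turn, EBC-1 had 4 to 5 lower and 3 higher at 24 h and 4 to 5 lower and 1 to 3 higher at 48 h, and MKN-45 had 5 and 3 at 24 h and 4 and 3 at 48 h. HCC827 had 0 to 3 called at 24 h and 1 to 3 lower and 1 to 3 higher at 48 h. Between times, 1 to 3, 3 to 5 and 4 to 6 were called in EBC-1, MKN-45 and HCC827. EBC-1 minus MKN-45 had 4 to 5 at 24 h and 5 at 48 h, EBC-1 minus HCC827 8 and 3 to 6, MKN-45 minus HCC827 8 and 5 to 7, and the DMSO comparison 6 to 8. DUSP2 in HCC827 at 48 h lost its call without DMSO replicate 1 or 3 or SGX-523 48 h replicate 1 or 3.

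Over all genes, HCC827 at 24 h had 4 calls, 0 to 27 under the other settings with all arrays, and 0 to 2674 with 1 array left out (2393 without SGX-523 24 h replicate 1, 2674 without replicate 2, 20 without replicate 3). At 48 h it had 1322 lower and 1432 higher, 544 and 673 fitted separately, and 2743 and 2722 with array weights. Between times, EBC-1 had 1371 calls and 2829 fitted separately, MKN-45 3007 and 4618 with array weights, and HCC827 3286 and 1059 fitted separately.

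Replicate numbers did not pair the samples (r of same-numbered arrays -0.20 to 0.16). With the replicate block, 4 phosphatases in place of 5 were lower in EBC-1 at 48 h, 2 in place of 3 in HCC827 at 48 h, and 6 in place of 5 were called between times in HCC827. Signals under the array median, as for DUSP2 after SGX-523, for DUSP5 in MKN-45 and for DUSP6 after 24 h of SGX-523 in MKN-45, resolve the size of a fall poorly.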
